A study of Homo sapiens with 29 samples.

Results

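The comparison described here set 3 BEAS-2B cultures exposed to 5 nM N-OH-PhIP against 3 vehicle cultures, which are 6 of the 29 arrays in the series. The members were taken by title: every array whose title gives 5 nM N-OH-PhIP and every array titled as a DMSO control. BEAS-2B is an immortalised line of human bronchial epithelial cells. PhIP is a heterocyclic amine that forms in cooked meat and tobacco smoke, and N-OH-PhIP is what cells make of it by N-hydroxylation. The DMSO group was untreated apart from its vehicle, and both groups carried the same 1% DMSO for the same 24 h. The line was kept in LHC-9 medium with retinoic acid and epinephrine on plates coated with fibronectin, collagen and albumin, and was exposed at about 70% confluence. The other arrays of the series carried 8 further doses between 0.1 and 1000 nM, of which the neighbouring 1 nM and 10 nM groups (3 arrays each) are used below. The series text puts the lowest dose at 0.5 nM, whereas array titles go down to 0.1 nM. The study was set up to find the dose below which transcription no longer departs from that of vehicle-treated cells.

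N-OH-PhIP can be esterified in the cell to a reactive species that forms bulky adducts on guanine, which are removed by nucleotide excision repair and can activate p53. Immediate early genes are a separate class: growth factors, stress and serum switch them on within minutes through ERK, SRF and CREB, without new protein synthesis, and their short-lived transcripts encode transcription factors such as FOS, JUN and EGR1. In bronchial epithelial cells the EGF receptor is one route to these genes, and chemokines such as CXCL8 and feedback phosphatases of the DUSP family are among the genes that follow them.

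Total RNA (40 ng per culture) was amplified, labelled with biotin and hybridised to a 3′ expression array, on which a probe set is a group of short probes that together read 1 stretch of a transcript. The deposited value of a probe set is a linear intensity, and all tests used log2(intensity + 16). Of 54613 probe sets that are no array controls, the 27307 with the highest mean over all 29 arrays (a level of at least 37.4) were tested. The labels call the cultures triplicates, and p-values measure the spread between them. A difference was called when limma's moderated test, fitted over all 29 arrays with 1 mean per group, gave a Benjamini-Hochberg adjusted p under 0.05 over all tested probe sets, and adjusted p-values below come from that fit. Gene counts take 1 probe set per gene, that with the highest mean level, which leaves 12174 genes. With 3 arrays in each group, the number of arrays sets the precision.

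Both groups held 1 array that stood apart from its replicates. Replicate 3 at 5 nM differed from both other 5 nM arrays by at least 1 log2 unit on 85 probe sets (76 above and 9 below), against 0 for replicate 1 and 17 for replicate 2. DMSO replicate 1 differed in the same way on 203 probe sets, all of them above, against 2 and 0 for the others. Among the 302 called probe sets 0 had any of the 6 arrays 1 log2 unit beyond its replicates. Such a spread itself works against a call, so this does not show that the calls were free of these arrays. The 3′ to 5′ signal ratio of the GAPDH control probe sets, a measure of RNA integrity and amplification, was slightly higher at 5 nM (log2 ratio 0.155 to 0.172) than in DMSO (0.137 to 0.154). The same ratio averaged over the actin and GAPDH controls overlapped, at 1.18 to 1.31 and 1.13 to 1.21. With this average as a covariate 657 probe sets were called, 297 higher and 360 lower, with 264 of them among the 302. Under it FOS had a log2 change of -1.55 (adjusted p = 0.00015), EGR1 one of -1.96 (adjusted p = 0.00045) and TXNIP one of -1.14 (adjusted p = 0.011). The median intensity of an array was 36.3 to 37.0 at 5 nM and 37.2 to 37.9 in DMSO, without overlap, and with every array centred on its median 301 probe sets were called, 265 of them among the 302.

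Against DMSO, 302 probe sets (1.11% of those tested) were called at 5 nM, 92 higher (0.337%) and 210 lower (0.769%). Since fewer cells of a type and less RNA per cell cannot be told apart in bulk RNA, each change below is a change in the culture. The decreases were the larger: the median log2 change was -0.44 over the 210 lower probe sets and 0.34 over the 92 higher ones, and the extremes were -1.91 (EGR1) and 0.69 (WAC). Only 59 of the 302 reached 1.5-fold. The called probe sets with 1 gene symbol named 76 genes that rose and 134 that fell. With 1 probe set per gene, 119 of 12174 genes (0.977%) were called, 40 higher (0.329%) and 79 lower (0.649%). The 3 arrays of one group lay wholly to one side of the other 3 for all 302, as they did for 18.9% of all tested probe sets (8.6% with 5 nM lower). By gene the arrays did not overlap for 7.52% with 5 nM lower and 11.8% with 5 nM higher.

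**Figure D1:**
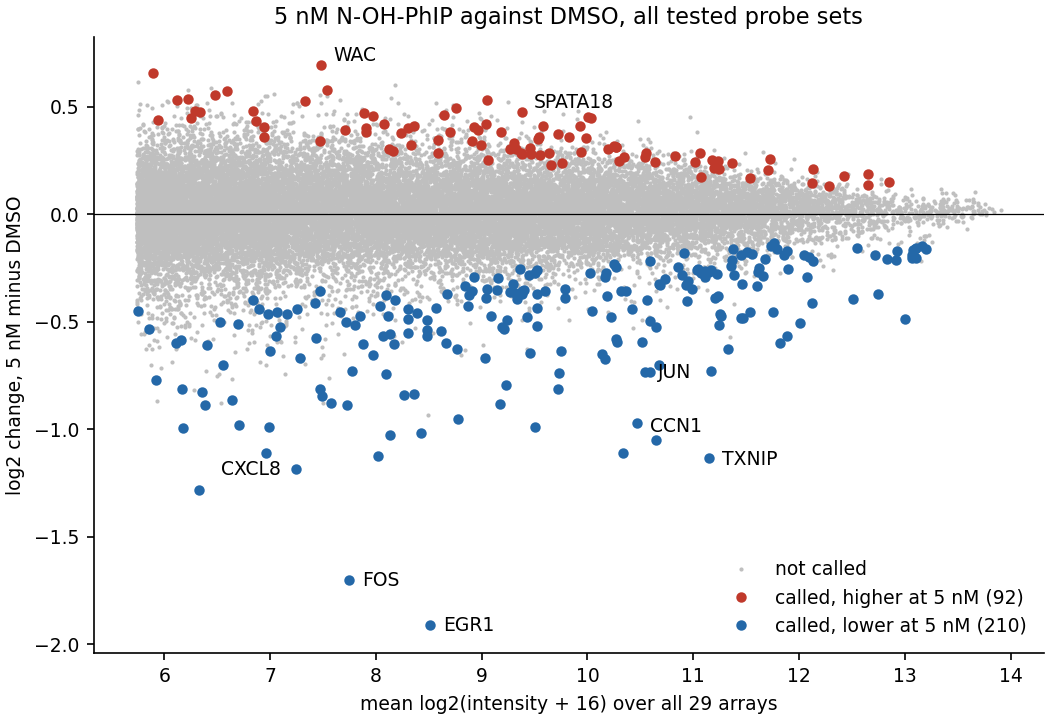
Log2 change at 5 nM against DMSO (vertical axis, 5 nM minus DMSO) against mean log2(intensity + 16) over all 29 arrays (horizontal axis) for the 27307 tested probe sets, with the 92 called higher in red and the 210 called lower in blue. EGR1 and FOS lie lowest, and the called increases stay below 0.7.

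The number of calls depended on single arrays and on the groups that gave the spread. With only the 5 nM and DMSO groups in the fit 33 probe sets were called, 0 higher and 33 lower. The omissions that follow kept all groups in the fit. Without 5 nM replicate 3 there were 114 calls (0.417%), 13 higher (0.0476%) and 101 lower (0.37%), which came to 40 of the 12174 genes (0.329%), 4 higher (0.0329%) and 36 lower (0.296%). Both with and without it 104 probe sets were called: 11 higher, in 8 genes, and 93 lower, in 59 genes. Without both replicate 3 and DMSO replicate 1, a choice made after the data were seen, 90 were called (0.33%), 2 higher (0.00732%) and 88 lower (0.322%), or 31 genes (0.255%), 1 higher (0.00821%) and 30 lower (0.246%). Leaving out DMSO replicate 2 left 41 calls, DMSO replicate 1 left 180, DMSO replicate 3 left 195, and 5 nM replicate 1 left 124. Without 5 nM replicate 2, whose values lay nearest to DMSO for many of the genes that fell, 363 were called. Replicate 3 was the 5 nM array farthest from DMSO for 59 of the 92 higher probe sets. For the 210 lower ones it was replicate 1 for 94, replicate 3 for 89 and replicate 2 for 27. Across all 6 single-array omissions 37 probe sets were called every time, 36 of them lower and 1 higher. Of these 37, 9 had no single gene symbol and are not named here, all of them lower. The rest named 21 genes that fell, among them EGR1, FOS, JUN, IER2, ZFP36, CCN1, TNFAIP3, SPRY4, MCL1, MT2A and HERPUD1, and 1 that rose, PLA2G12A. Every call beyond the 37 was lost in at least 1 of these omissions.

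Immediate early genes held the largest decreases, in a list of transcription factors that also took in IER2, IER3 and ZFP36. Of 25 listed genes 23 were tested, 7 were called lower (FOS, JUN, EGR3, ATF3, IER2, IER3 and ZFP36) and 0 higher. Over all tested genes 0.649% were called lower and 0.329% higher. The change was below 0 for 22 of the 23, with FOSL2 the exception at 0.12, and the median log2 change was -0.38, against 0.02 over all genes tested. The list was chosen with earlier results of these arrays known. Without replicate 3 again 7 were called, with KLF6 in place of IER3, and the median stayed at -0.38. Without both replicate 3 and DMSO replicate 1 the count was 6. Leaving out single arrays moved it to 4 (5 nM replicate 1), 13 (5 nM replicate 2), 4 (DMSO replicate 2) and 5 (DMSO replicate 3), and with only the 2 groups in the fit it was 2. Array by array the list's median log2 difference from the DMSO mean was -0.68, -0.21 and -0.39 in 5 nM replicates 1, 2 and 3, whereas each DMSO array differed from the other DMSO arrays by -0.16 to 0.08. At 1 nM, against the same DMSO arrays, 8 of the 23 were called lower, with a median of -0.44, so the decrease was not particular to 5 nM.

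FOS encodes a subunit of the AP-1 transcription factor. Its intensity was 292, 334 and 380.4 in DMSO replicates 1 to 3 and 73.0, 93.9 and 112 at 5 nM. Every 5 nM array was thus far below every DMSO array, and the log2 change was -1.70 ± 0.20 SE, adjusted p = 2.6e-05. JUN, the partner of FOS in AP-1, was read by 4 probe sets and fell on all 4, by between 0.48 and 0.81 on the log2 scale. On its brightest probe set it measured 1742, 2117 and 1929 in DMSO and 1138, 1232 and 1086 at 5 nM, again without overlap, with a log2 change of -0.73 ± 0.08 SE, adjusted p = 1.4e-05.

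EGR1, a zinc finger factor induced through SRF, was read by 3 probe sets that differed in size of change. The one with the largest change of the whole comparison measured 520.2, 644 and 609 in DMSO and 109, 190.1 and 146 at 5 nM, a log2 change of -1.91 ± 0.25 SE, adjusted p = 0.00019. Every 5 nM array was far below every DMSO array. A second probe set changed by -0.49 ± 0.09 SE, adjusted p = 0.0039. The brightest read 10149, 9549 and 9519 in DMSO and 7704, 8803 and 8618 at 5 nM and did not pass the test (-0.22 ± 0.06 SE, adjusted p = 0.063), so EGR1 is not among the 7 called list members. Its relative EGR3 measured 79.0, 99.1 and 122 in DMSO and 26.0, 58.6 and 46.5 at 5 nM. The groups were separate, and EGR3 changed by -0.98 ± 0.19 SE, adjusted p = 0.01, a call lost without 5 nM replicate 1, DMSO replicate 2 or DMSO replicate 3.

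The remaining called members were of smaller change. IER2, a nuclear protein of the early growth response, fell by 0.51 on the log2 scale from 4621, 5078 and 4822 to 2897, 3733 and 3635 (adjusted p = 0.0015). ZFP36, which binds AU-rich transcripts and speeds their decay, measured 245, 284 and 314 and then 154, 201 and 200.2, a log2 change of -0.57 ± 0.10 SE, adjusted p = 0.0042. ATF3, a stress-induced member of the ATF family, changed by -0.47 ± 0.09 SE, adjusted p = 0.011, and the survival gene IER3 by -0.46 ± 0.11 SE, adjusted p = 0.03. The calls of IER2 and ZFP36 held in all 6 single-array omissions. KLF6 was not called on its brightest probe set (-0.42 ± 0.11 SE, adjusted p = 0.058) but fell on another 2 (-0.70 ± 0.08 SE, adjusted p = 4.8e-05, and -0.73 ± 0.12 SE, adjusted p = 0.0019). Members that did not pass the test included FOSL1 (-0.65 ± 0.19, adjusted p = 0.074), FOSB (-0.60 ± 0.17, adjusted p = 0.068), JUNB (-0.32) and NR4A1 (-0.38). For MYC, 5 nM replicate 3 at 264.6 lay above all DMSO arrays and replicate 1 at 129.8 well below them, and the difference did not pass.

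The promoters of EGR1 and FOS, the genes with the largest decreases, and of CXCL8, which fell most among the chemokines, are shown from 250 bases before to 50 bases after the start of the gene, because early response elements are known in promoters of such genes. Sequences are from RefSeq (GRCh38.p14), all on the plus strand. Capitals mark 3 motifs searched on both strands: the CArG box (CC, then 6 A or T, then GG), which SRF binds, the TGACG core of a CREB site, and TGANTCA, an AP-1 site. No searched motif overlapped another in these windows.
EGR1, chr5:138465229-138465528: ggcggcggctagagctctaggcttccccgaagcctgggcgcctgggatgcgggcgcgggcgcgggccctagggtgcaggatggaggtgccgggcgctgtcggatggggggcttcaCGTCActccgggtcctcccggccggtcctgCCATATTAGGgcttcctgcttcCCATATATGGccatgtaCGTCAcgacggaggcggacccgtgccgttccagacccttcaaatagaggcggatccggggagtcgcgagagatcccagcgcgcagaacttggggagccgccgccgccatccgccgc
FOS, chr14:75278578-75278877: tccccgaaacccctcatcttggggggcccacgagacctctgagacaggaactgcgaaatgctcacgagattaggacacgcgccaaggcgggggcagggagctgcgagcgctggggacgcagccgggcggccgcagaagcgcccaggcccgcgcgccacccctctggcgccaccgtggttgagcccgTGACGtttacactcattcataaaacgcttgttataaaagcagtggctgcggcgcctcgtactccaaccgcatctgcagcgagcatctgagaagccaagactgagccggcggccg
CXCL8, chr4:73740319-73740618: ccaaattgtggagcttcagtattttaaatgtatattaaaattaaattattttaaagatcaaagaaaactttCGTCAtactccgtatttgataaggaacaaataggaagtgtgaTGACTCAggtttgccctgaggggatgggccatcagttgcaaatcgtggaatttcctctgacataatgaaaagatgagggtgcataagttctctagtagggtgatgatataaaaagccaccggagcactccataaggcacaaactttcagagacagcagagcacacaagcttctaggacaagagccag
The EGR1 window held 2 CArG boxes and 2 TGACG cores on the minus strand, FOS 1 TGACG core, and CXCL8 1 TGACG core and 1 AP-1 site. Among all 35116 promoters of the RefSeq table, 1.29% held a CArG box, 24.6% a TGACG core and 7.71% the AP-1 motif. Of 25 listed immediate early genes 19 were matched, with 25 promoters between them, of which 2 held a CArG box, 14 TGACG and 1 the AP-1 motif. A match describes the letters only. Bases outside a window were not searched, so a motif missing from a window may lie elsewhere at that gene.

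EGR1 and FOS overlapped between 1 nM and 5 nM and stood near the DMSO level at 10 nM. The FOS arrays read 72.2, 118 and 103 at 1 nM and 296, 333 and 297 at 10 nM, and those of EGR1, on its most changed probe set, read 85.3, 207 and 186 and 574, 595 and 591. At the lowest dose, 0.1 nM, FOS was at 81.8 to 112, and in the 2 arrays at 0.5 nM at 141 to 204. From 50 to 1000 nM its arrays spread from 163.6 to 465.3, all above every 5 nM array. For EGR1 the arrays from 50 to 1000 nM read 293.5 to 746.8, likewise all above those at 5 nM. Ordered by level, 5 nM, 1 nM and 0.1 nM overlapped for both genes, and DMSO and 10 nM overlapped for both. These levels are a description of all groups, and the DMSO arrays are common to every comparison with vehicle.

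**Figure D2:**
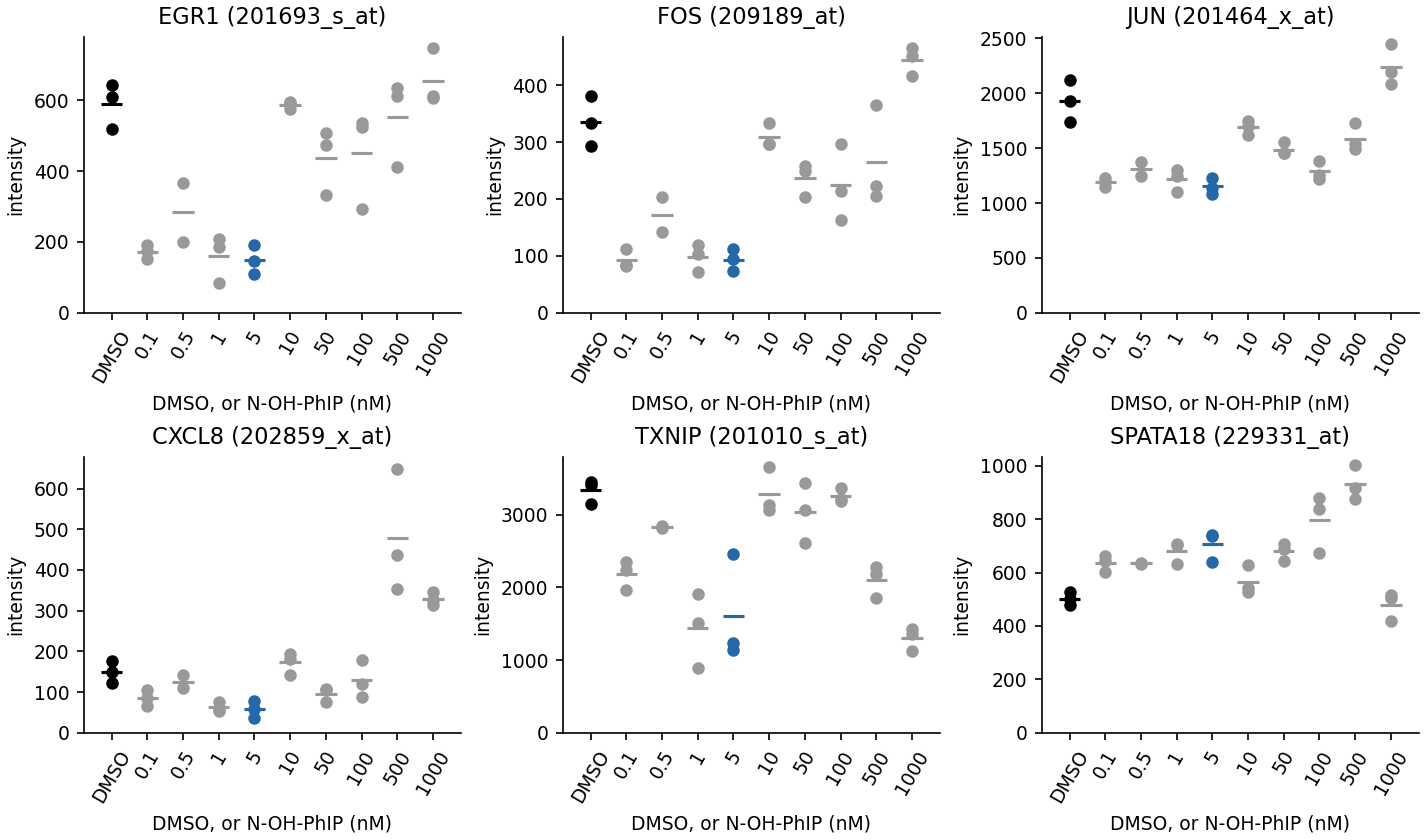
Intensity of 6 probe sets in every array by group, from DMSO and 0.1 nM to 1000 nM, with 1 point per array (3 arrays, 2 at 0.5 nM) and a bar at the group mean; DMSO is black and 5 nM blue. EGR1, FOS and JUN sit low at 5 nM and near the DMSO level at 10 nM, TXNIP is low at 1, 5 and 1000 nM, and SPATA18 is above DMSO at 5 nM.

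Genes that act just below the EGF receptor and ERK held fewer called members. Of 17 tested ERK feedback genes 2 fell, 0 rose, and the median was -0.16. Over all tested genes 0.649% were called lower. SPRY4, an inhibitor of receptor tyrosine kinase signalling, measured 826, 891 and 952 in DMSO and 466, 691 and 453 at 5 nM, with no overlap and a log2 change of -0.74 ± 0.13 SE, adjusted p = 0.0038. DUSP5, a nuclear ERK phosphatase, read 1106, 1157 and 1190.4 and then 547, 986 and 713. Its replicate 2 lay nearest to DMSO, and the change of -0.65 ± 0.14 SE, adjusted p = 0.025 lost its call in each single-array omission except that of replicate 2. DUSP6, the cytoplasmic ERK phosphatase, just missed the threshold (-0.53 ± 0.13 SE, adjusted p = 0.051). Of 8 tested EGF receptor family genes only HBEGF, a membrane-anchored ligand, fell, from 1239, 1357 and 1384 to 843, 1179 and 817 (-0.50 ± 0.13 SE, adjusted p = 0.046; -0.40, adjusted p = 0.24 without replicate 3). Leaving out 1 array at a time, the ERK list had 3 called members without 5 nM replicate 2 and 1 without any other array, and HBEGF was called only without 5 nM replicate 2.

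Among 18 tested YAP and SRF targets 2 fell, against 0.649% of all tested genes, 0 rose, and the median was -0.07. Both were matricellular proteins of the CCN family. CCN2, formerly CTGF, measured 486, 555 and 516 in DMSO and 176, 386 and 258 at 5 nM. The groups did not overlap although the 5 nM arrays ranged widely, and the change was -0.95 ± 0.18 SE, adjusted p = 0.006. CCN1, formerly CYR61, fell on both probe sets, by 0.51 on the brighter one and on the other from 1788, 1809 and 1680.1 to 813, 1096 and 785 (-0.97 ± 0.11 SE, adjusted p = 2.6e-05). The rest of the list included ACTB, SRF, VCL and THBS1, with log2 changes of -0.03, -0.30, -0.11 and 0.40, none called. LATS2, a kinase that restrains YAP, was not called on its brightest probe set (0.02) and fell on 1 other of 3 (-0.99 ± 0.20 SE, adjusted p = 0.013; adjusted p = 0.075 without replicate 3). Outside the lists, and singled out after the values were seen, RHOB (-0.63 ± 0.09 SE, adjusted p = 0.00068) and the YAP paralogue WWTR1 (-0.60 ± 0.10 SE, adjusted p = 0.0028) fell in all single-array omissions. The count of 2 for the list went to 0 without 5 nM replicate 1 and to 1 without DMSO replicate 2.

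Inflammatory cytokines and NF-kB targets included 3 genes that fell and 0 that rose among 21 tested, with a median of -0.22 and 19 of 21 below 0. The share called lower over all tested genes was 0.649%. CXCL8, the neutrophil chemokine interleukin-8, measured 123, 149 and 175 in DMSO and 37.4, 78.6 and 57.9 at 5 nM. All 5 nM arrays were below all DMSO arrays, and the log2 change was -1.19 ± 0.22 SE, adjusted p = 0.0059, with a call lost without 5 nM replicate 1 or DMSO replicate 2. TNFAIP3 (A20), which terminates NF-kB signalling, was called on both of its probe sets. On the brighter one its arrays read 189.5, 315 and 227 in DMSO and 117, 127 and 121 at 5 nM, so that the 5 nM arrays were close together and DMSO replicate 2 was the high one (-0.89 ± 0.14 SE, adjusted p = 0.0016). IL1A, an alarmin cytokine of epithelial cells, changed by -0.49 ± 0.11 SE, adjusted p = 0.02, a call lost without 5 nM replicate 1, 5 nM replicate 3, DMSO replicate 2 or DMSO replicate 3. IL6, LIF, PTGS2 and CXCL1 did not pass, at -0.05, -0.20, -0.20 and -0.38. The list's count was 2 without 5 nM replicate 3, 1 without 5 nM replicate 1 and 1 without DMSO replicate 2.

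TXNIP, which binds thioredoxin and limits glucose uptake, fell at a high level of expression. On its brightest probe set it measured 3148, 3453 and 3413 in DMSO and 1137, 2455 and 1230.2 at 5 nM. Replicate 2 lay much nearer to DMSO than replicates 1 and 3, yet below every DMSO array. All 3 probe sets of TXNIP fell, the brightest by -1.14 ± 0.21 SE, adjusted p = 0.0054, and its call was lost without 5 nM replicate 1 or DMSO replicate 2. ARRDC4, a related arrestin-fold gene that also responds to glucose, had a log2 change of -0.63 and did not pass (adjusted p = 0.062). Of 7 tested glucose-sensing genes TXNIP alone was called.

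KLHL24, a BTB-kelch protein that directs a basal keratin to ubiquitination, fell on 2 of 4 probe sets, on one from 308, 337 and 259 to 122, 145 and 121 (-1.12 ± 0.21 SE, adjusted p = 0.0071), a call lost without DMSO replicate 2. MCL1, a short-lived inhibitor of apoptosis, fell on all 5 probe sets and was the single called gene of 22 apoptosis regulators. A probe set called in every single-array omission changed by -0.73 ± 0.10 SE, adjusted p = 0.00035. The brightest read 2917, 3152 and 3079 and then 2350.5, 2510.3 and 1743, with replicate 3 the lowest, and its change of -0.48 ± 0.10 became -0.33, adjusted p = 0.14 without that array. GADD45B, a stress-induced activator of p38 and JNK signalling, fell on 3 of 4 probe sets (-0.53 ± 0.10 SE, adjusted p = 0.0089 on the brightest), and SGK1, a kinase of the glucocorticoid response, by 0.55 (adjusted p = 0.035). They were the 2 called genes of 9 tested in the glucocorticoid list, against 0.649% of all tested genes called lower. That list had 0 without 5 nM replicate 1 or DMSO replicate 2, and 1 without 5 nM replicate 2, DMSO replicate 1 or DMSO replicate 3. CPEB2, a regulator of poly(A) tails, fell on 1 of 2 probe sets from 73.6, 88.4 and 73.9 to 32.4, 36.6 and 43.2 (-0.83 ± 0.14 SE, adjusted p = 0.0024). FNIP1, a folliculin partner, fell on 1 of 5 (-1.02 ± 0.24 SE, adjusted p = 0.033), a call lost without replicate 3 (adjusted p = 0.15).

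Of 15 tested heat shock chaperones 2 fell and 0 rose, whereas 0.649% of all tested genes were called lower. HSP90AB1, the constitutive cytosolic HSP90, measured 4059.9, 4461 and 4262 in DMSO and 3479, 3569 and 3370.0 at 5 nM, and changed by -0.29 ± 0.05 SE, adjusted p = 0.0033. DNAJA1, its HSP40 co-chaperone, changed by -0.33 ± 0.05 SE, adjusted p = 0.0018. DNAJB1 fell on 1 of 2 probe sets (-0.88 ± 0.18 SE, adjusted p = 0.012) and not on the brighter one, a call lost without 5 nM replicate 1 or DMSO replicate 2. Among 27 genes of ATF4 and the unfolded protein response 3 fell. HERPUD1, which serves degradation at the endoplasmic reticulum, changed by -0.38 ± 0.05 SE, adjusted p = 0.00021. The chaperone HSP90B1 changed by -0.21 ± 0.05 SE, adjusted p = 0.026 and the factor CEBPB by -0.15 ± 0.04 SE, adjusted p = 0.04. HERPUD1 was called in every omission, whereas the list's count was 2 without 5 nM replicate 1, 5 without 5 nM replicate 2, and 1 without 5 nM replicate 3 or any single DMSO array.

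Metallothioneins, small cysteine-rich proteins that hold zinc and copper, fell on 3 of 8 tested list members, with a median of -0.20. Of all tested genes 0.649% were called lower. MT2A measured 5966, 6079 and 6036 in DMSO and 4339.7, 5161 and 4287 at 5 nM. It was lower in every 5 nM array, with a log2 change of -0.39 ± 0.06 SE, adjusted p = 0.0011. MT1G changed by -0.29 ± 0.07 SE, adjusted p = 0.035 and MT1X by -0.24 ± 0.06 SE, adjusted p = 0.046. These genes are near-identical copies, and probe sets of this type can read more than 1 of them, so the members are not independent. MT2A alone was called without 5 nM replicate 1, replicate 3, DMSO replicate 2 or DMSO replicate 3.

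**Figure D3:**
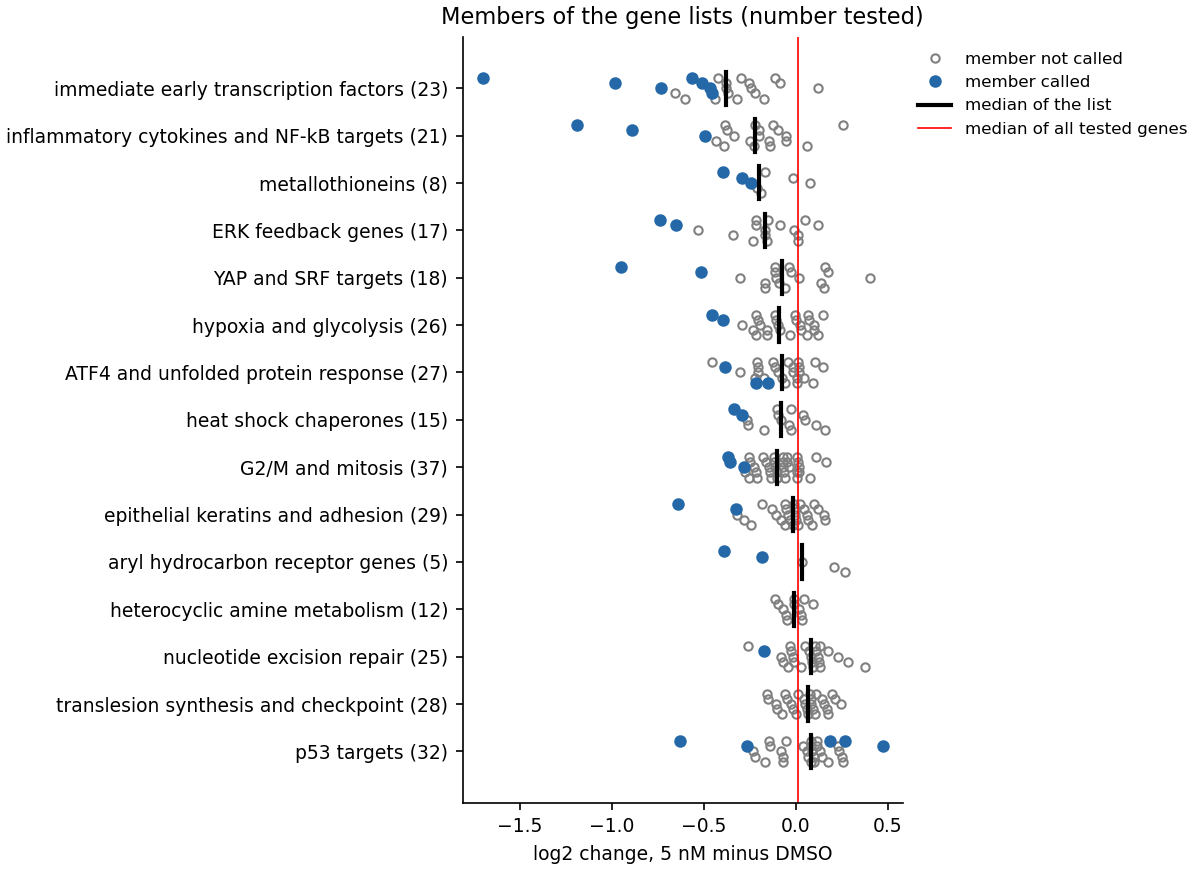
Log2 change at 5 nM against DMSO (horizontal axis) of each tested member of 15 gene lists, 1 point per gene, filled where called, with the list median as a black bar and the median of all tested genes as a red line; the number tested is in parentheses. The immediate early list lies furthest left with a median of -0.38, and the p53 list has called members on both sides.

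Known targets of p53 were called in both directions. Of 32 tested genes 3 rose, 2 fell, and the median was 0.09. Over all tested genes 0.329% were called higher and 0.649% lower. SPATA18, a mitochondrial quality control gene, measured 501, 478 and 529 in DMSO and 736, 743 and 639 at 5 nM. All 5 nM arrays were higher, the change was 0.47 ± 0.09 SE, adjusted p = 0.0087, and without replicate 3 it was 0.54, adjusted p = 0.011. RPS27L, a p53-induced ribosomal protein paralogue, read 5356, 5284 and 5742 and then 6365, 6230.0 and 6059.9, a small separate rise of 0.19 ± 0.04 SE, adjusted p = 0.02. FBXO22, a substrate adaptor of ubiquitin ligase, changed by 0.27 ± 0.07 SE, adjusted p = 0.044 and was not called without replicate 3 (adjusted p = 0.27). PLK2, a kinase that is also an early response gene, fell from 380.0, 443 and 394 to 211, 282 and 283 (-0.63 ± 0.13 SE, adjusted p = 0.013), and the antiproliferative BTG1 fell too (-0.26 ± 0.06 SE, adjusted p = 0.019). Counts of rising and falling members were 2 and 1 without replicate 3, 1 and 0 without 5 nM replicate 1, 2 and 3 without 5 nM replicate 2, 1 and 2 without DMSO replicate 1, 0 and 0 without DMSO replicate 2, and 4 and 1 without DMSO replicate 3.

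The targets most used as readouts of p53 did not pass the test. CDKN1A (p21), the cell cycle inhibitor, measured 4588, 4479 and 4920.1 in DMSO and 4449.8, 4872 and 4196 at 5 nM, with overlapping arrays (-0.05 ± 0.05 SE, adjusted p = 0.71). MDM2, the ubiquitin ligase of p53, read 4875, 4227 and 4692 and 4893, 5291 and 5014 on its brightest probe set, with 5 nM above DMSO in every array, and did not pass (0.14 ± 0.05 SE, adjusted p = 0.18; 0 of 9 probe sets called). The secreted factor GDF15 read 1479, 1448 and 1669 and 1325, 1473 and 1368 (-0.14 ± 0.07 SE, adjusted p = 0.35). DDB2 and XPC, damage sensors of nucleotide excision repair that p53 induces, had changes of 0.23 ± 0.07 and 0.13 ± 0.09, neither called.

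Repair lists were nearly without calls. Over all tested genes only 0.977% were called, so few calls in these lists are no result about repair genes. Of 25 tested nucleotide excision repair genes only CDK7, the kinase of TFIIH, fell (-0.17 ± 0.03 SE, adjusted p = 0.01), a call lost without DMSO replicate 2. No gene was called among 20 Fanconi and homologous recombination genes, 21 of base excision and mismatch repair, 28 of translesion synthesis and checkpoints or 38 of replication and G1/S, by limma with adjustment over all probe sets. In the G2/M list 3 of 37 fell: CDCA8, a chromosomal passenger protein (-0.37 ± 0.09 SE, adjusted p = 0.031), KIF20A, a kinesin of cytokinesis (-0.36 ± 0.09 SE, adjusted p = 0.044), and TPX2, a spindle assembly factor (-0.28 ± 0.07 SE, adjusted p = 0.039). None of these 3 was called without 5 nM replicate 3, and the count was 0 without 5 nM replicate 2 or DMSO replicate 2 and 1 without DMSO replicate 1 or DMSO replicate 3.

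Genes that handle heterocyclic amines gave little signal. CYP1A1, which oxidises PhIP, was below the level minimum, with intensities of 20.3, 32.6 and 30.9 in DMSO and 19.7, 22.5 and 21.7 at 5 nM. CYP1B1 overlapped between groups (0.04 ± 0.11), and 0 of 12 genes of heterocyclic amine metabolism were called. Of 5 tested aryl hydrocarbon receptor genes 2 fell, TIPARP, a feedback inhibitor of the receptor (-0.39 ± 0.08 SE, adjusted p = 0.013), and NQO1, a quinone reductase shared with the NRF2 list (-0.18 ± 0.04 SE, adjusted p = 0.036). Neither was called without 5 nM replicate 1, 5 nM replicate 3, DMSO replicate 2 or DMSO replicate 3. NQO1 was the 1 called gene of 22 NRF2 genes, and 0.649% of all tested genes were called lower. HMOX1, heme oxygenase, measured 29.9, 35.5 and 30.9 in DMSO and 29.3, 27.5 and 40.7 at 5 nM, levels close to the minimum.

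Smaller groups are given by their called members. With 0.977% of all tested genes called, a list without a call is no result about its members. Hypoxia and glycolysis genes included ADM, a vasodilator peptide (-0.39 ± 0.08 SE, adjusted p = 0.015), and ENO1, a glycolytic enzyme that fell on all 3 probe sets (-0.45 ± 0.11 SE, adjusted p = 0.042 on the brightest), as 2 of 26 tested. ENO1 was lowest in replicate 3, at 2186, 2362 and 1572 across the 5 nM arrays, and without that array its adjusted p was 0.28. ADM lost its call without 5 nM replicate 1, DMSO replicate 2 or DMSO replicate 3, and in each of these the list had 0 called members. ATP5F1B, the catalytic subunit of ATP synthase, was 1 of 29 respiratory chain genes (-0.20 ± 0.05 SE, adjusted p = 0.029; adjusted p = 0.18 without replicate 3). Among 29 keratins and adhesion genes KRT5, a basal cell keratin, fell from 788, 972 and 794 to 560.4, 573 and 488 (-0.64 ± 0.13 SE, adjusted p = 0.016), and SFN, the epithelial 14-3-3 protein, by 0.32 (adjusted p = 0.035). Without replicate 3 neither KRT5 (adjusted p = 0.10) nor SFN (adjusted p = 0.22) was called. No member was called in the lists of TGF-beta targets (19 tested), interferon-stimulated genes (20), cholesterol synthesis (23), histones (8), ribosomal proteins (20), proteasome subunits (27), SR splicing factors (22), transcription elongation (15), squamous differentiation (8), mesenchymal genes (22), retinoid response (6) and fragile-site genes (13).

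In the lists without a call, the genes with the smallest p came close to the threshold in a few cases. RRM2, the regulated subunit of ribonucleotide reductase, had a log2 change of -0.11 ± 0.03 SE, adjusted p = 0.052, and ORC6, of the origin recognition complex, one of 0.21 ± 0.05 SE, adjusted p = 0.051. For BMP2, a ligand of the TGF-beta family, it was -0.42 ± 0.11 SE, adjusted p = 0.057, and for TGFBI, a matrix protein induced by TGF-beta, -0.29 ± 0.08 SE, adjusted p = 0.071. In cholesterol synthesis DHCR7 and SQLE, enzymes of its late and middle steps, had changes of -0.36 ± 0.10 and -0.26 ± 0.07. PSMC6, an ATPase of the proteasome, had a change of -0.13 ± 0.03. Fibronectin (FN1) was called on 1 of 4 probe sets but not on its brightest (-0.22 ± 0.06 SE, adjusted p = 0.082). The damage checkpoint kinase CHEK1 (-0.16), the helicase BLM (-0.14), the base excision polymerase POLB (-0.14) and the translesion polymerase POLI (0.20) had adjusted p-values of 0.17 or more. In the whole comparison 4146 probe sets had an unadjusted p under 0.05.

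Increases were smaller and leaned more on replicate 3. WAC, an adaptor of histone H2B ubiquitination, had the largest change, on 1 of 5 probe sets, from 115, 151 and 151 in DMSO to 227, 196 and 285 at 5 nM. Its groups were separate with replicate 3 highest (0.69 ± 0.14 SE, adjusted p = 0.012), and it was not called without that array (adjusted p = 0.11). TRIM22, an interferon-inducible antiviral protein with 1 probe set, read 302, 324 and 399 and then 485, 443 and 574 (0.53 ± 0.12 SE, adjusted p = 0.029; adjusted p = 0.18 without replicate 3). CFLAR, an inhibitor of death receptor signalling, rose on 1 probe set of 8 (0.53 ± 0.12 SE, adjusted p = 0.03), and TRPM7, a channel kinase, on 1 of 4 (0.55 ± 0.12 SE, adjusted p = 0.019). The antisense RNA gene ZNF436-AS1 rose by 0.58 ± 0.14 SE, adjusted p = 0.045, LSM8, a subunit of the U6 RNA ring, on 1 of 3 probe sets by 0.57, and the zinc finger gene ZNF785 (1 of 2) and TTC14 (1 of 3) by 0.53 and 0.48. A transcript of the pseudogene FRG1JP rose by 0.49 ± 0.11 SE, adjusted p = 0.021, on a probe set that can read its relatives. None of these was called without replicate 3.

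A smaller set of increases was called with and without replicate 3. PLA2G12A, a secreted phospholipase, measured 402, 409.9 and 432 in DMSO and 556, 581 and 509 at 5 nM on 1 of 4 probe sets. It was higher in every 5 nM array (0.39 ± 0.07 SE, adjusted p = 0.0044; 0.44, adjusted p = 0.005 without replicate 3). ARMCX3, a mitochondrial transport protein, read 1123, 1080.2 and 1173 and then 1426, 1370.3 and 1399 (0.31 ± 0.06 SE, adjusted p = 0.0044). SREK1IP1, a splicing-associated protein, rose on 1 of 4 probe sets (0.41 ± 0.07 SE, adjusted p = 0.0045), and KIAA0232 on 1 of 2 (0.53 ± 0.10 SE, adjusted p = 0.008). TFDP2, the dimer partner of E2F, rose on 1 of 4 (0.35 ± 0.08 SE, adjusted p = 0.021), and the translation factor EIF1AX on 1 of 4 (0.28 ± 0.05 SE, adjusted p = 0.008). SPATA18 and RPS27L, described above, completed the 8 genes. Of these 8, PLA2G12A alone was called in every single-array omission. With only the 2 groups in the fit 0 probe sets were called higher and 33 lower, so no increase was called there.

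**Figure D4:**
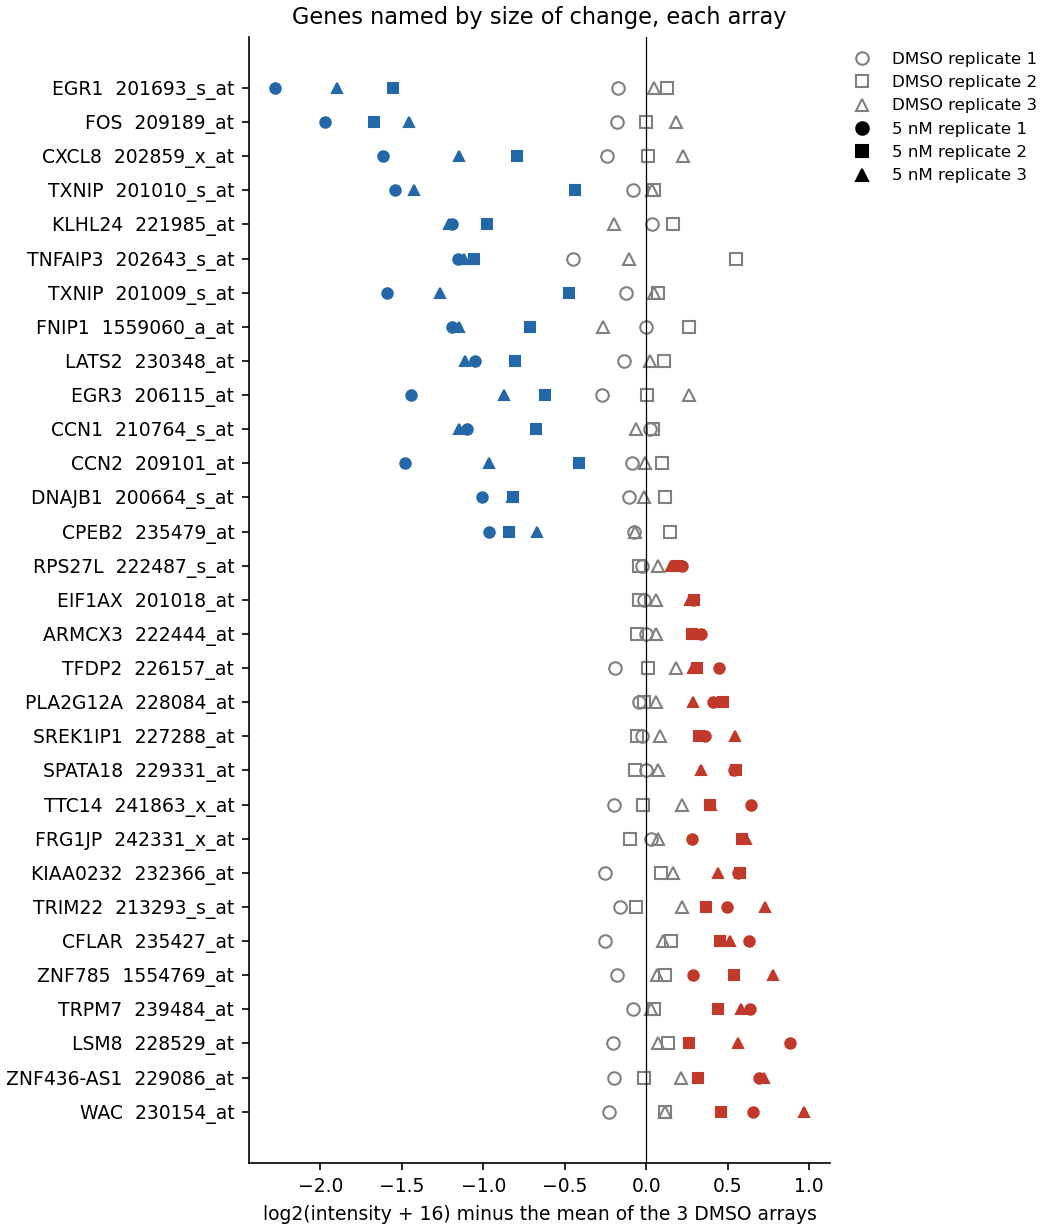
Log2(intensity + 16) of each array relative to the mean of the 3 DMSO arrays (horizontal axis) for the genes with the largest called changes with all arrays or also without 5 nM replicate 3, with open grey symbols for DMSO and filled ones for 5 nM (blue lower, red higher) and a shape for each replicate number. The naming rule required the 5 nM arrays to lie to one side of the DMSO arrays, so this holds on every line. Among the 5 nM arrays replicate 2 lies nearest to DMSO for EGR1, CXCL8, TXNIP and CCN2.

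Several genes with more than 1 probe set were called on only some of them. Of 164 genes with a call and several tested probe sets, 10 were called on all of them and 87 had all on the same side of 0. None was called in both directions.

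Replicate 3 at 5 nM differed from its replicates on genes that the comparison did not call. The genes named here were chosen for that distance, so their values are a description. Above the others stood SRGAP1 at 35.6, 43.4 and 199.7 in replicates 1, 2 and 3, and TMEM33, a membrane protein of the endoplasmic reticulum, at 213, 173 and 717. CPNE3, a calcium-dependent phospholipid-binding protein, read 570.2, 534 and 1711 against 552, 563 and 554 in DMSO, so that replicate 3 alone was far above DMSO. CSNK1A1, casein kinase 1 alpha, read 43.3, 41.4 and 160.3 on 1 of 11 probe sets, and the nuclear noncoding RNA MALAT1 399, 475 and 1398 on 1 of 12. Below the others stood STEEP1, a partner of STING, at 187, 148 and 36.2, TRMT2B, a mitochondrial tRNA methyltransferase, at 722, 735 and 256, MRTO4, a ribosome assembly factor, at 134, 133 and 51.7, and TNRC18 at 228, 254 and 97.2. ZNF595 ranged widely in both groups, at 90.0, 254 and 21.9 at 5 nM and 900.5, 63.2 and 48.2 in DMSO.

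**Figure D5:**
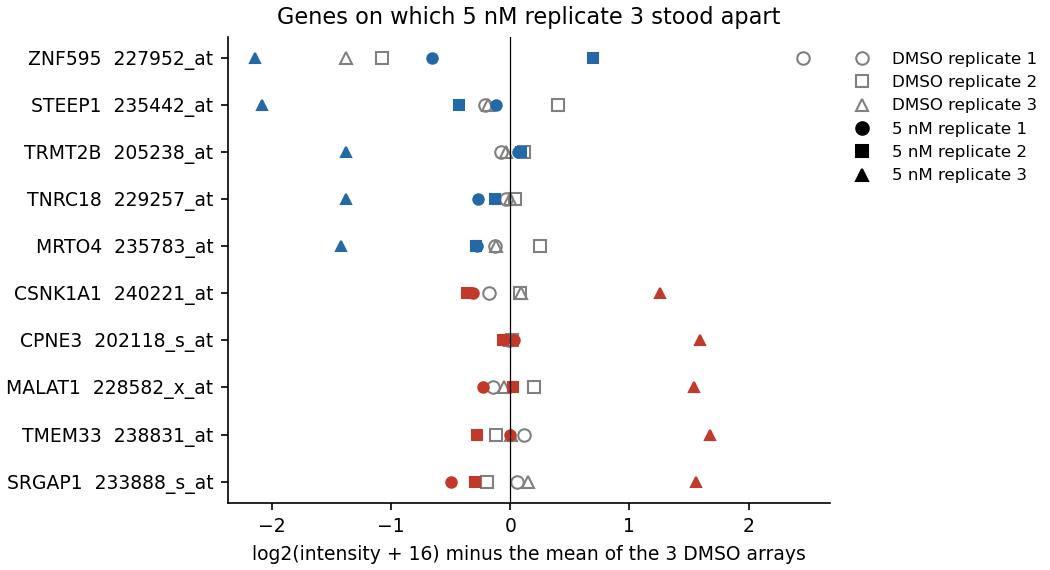
Log2(intensity + 16) of each array relative to the mean of the 3 DMSO arrays for the 10 genes on which 5 nM replicate 3 lay farthest above or below replicates 1 and 2, with open grey symbols for DMSO and filled ones for 5 nM (blue where the mean change was below 0, red where above). Filled triangles, 5 nM replicate 3, stand apart from the other 5 nM arrays on every line, and DMSO replicate 1 stands alone for ZNF595.

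The 5 nM arrays were then set against the neighbouring doses. Against 1 nM, limma called 0 of 27307 probe sets (0.0%), and 1527 had an unadjusted p under 0.05. The values for EGR1 and FOS in these 2 groups overlapped, as given above. TXNIP read 891, 1514 and 1907 at 1 nM, again alongside the 5 nM arrays. MT2A, in contrast, read 5363, 5629 and 5379 at 1 nM, above each 5 nM array, without passing the test. A p that misses the threshold does not show that the groups were alike.

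Against 10 nM, 1665 probe sets (6.1%) were called, 589 higher (2.16%) and 1076 lower (3.94%) at 5 nM, and without replicate 3 606 (2.22%), 111 higher (0.406%) and 495 lower (1.81%). By gene 810 were called (6.65%), 311 higher (2.55%) and 499 lower (4.1%), and without replicate 3 273 (2.24%), 62 higher (0.509%) and 211 lower (1.73%). The averaged 3′ to 5′ ratio was 1.31 to 1.42 at 1 nM, 1.18 to 1.31 at 5 nM and 1.13 to 1.22 at 10 nM. With this ratio as a covariate 2015 probe sets were higher and 2074 lower at 5 nM than at 10 nM. At 1.5-fold these counts were 307 and 197, against 41 and 171 without the covariate. Leaving out single 10 nM arrays gave 1057, 613 and 805 calls for replicates 1, 2 and 3, and leaving out 5 nM replicate 1 gave 1031. This comparison shares the 5 nM arrays with that against DMSO, so the values below stand side by side with those above and are not a repeat of them. Of the 23 tested immediate early genes 17 were called lower at 5 nM than at 10 nM, with a median of -0.54, and 13 were without replicate 3. The 3 largest decreases named by rule were EGR1, from 574, 595 and 591 at 10 nM (-1.90 ± 0.25 SE, adjusted p = 7.8e-05), FOS, from 296, 333 and 297 (-1.59 ± 0.20 SE, adjusted p = 3.9e-05), and EGR3, from 148, 172 and 128 (-1.50 ± 0.19 SE, adjusted p = 5.9e-05). FOSL1, FOSB and MAFF were also lower than at 10 nM, at -1.39, -1.03 and -0.93.

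Other groups were lower at 5 nM than at 10 nM on more members than against DMSO. Calls were more frequent at large: 4.1% of all genes were lower against 10 nM and 0.649% against DMSO. A higher count in a list is therefore not by itself particular to its members. Inflammatory genes were called lower on 14 of 21 (9 without replicate 3), ERK feedback genes on 7 of 17 (7 without it), and metallothioneins on 6 of 8. Without 10 nM replicate 2 the first 2 counts were 3 and 4, and without 5 nM replicate 1 they were 7 and 4, whereas the metallothionein count was 6 in every alternative run. Epithelial markers were also lower at 5 nM than at 10 nM, on 9 of 15 (6 without 5 nM replicate 3 or replicate 1, 4 without 10 nM replicate 2), with a median of -0.34 against -0.01 over all genes, and so were 12 of 29 keratin and adhesion genes (8 without 5 nM replicate 3, 7 without 5 nM replicate 1, 5 without 10 nM replicate 2). The part of the epithelial markers in the other groups' values was not tested. MT2A read 6347, 7043 and 6939.9 at 10 nM, above DMSO and 5 nM arrays alike (-0.56 ± 0.06 SE, adjusted p = 3.1e-05). CXCL8 differed by -1.38 ± 0.22 SE, adjusted p = 0.00055, SPRY4 by -1.09 ± 0.13 SE, adjusted p = 3.2e-05 and KRT5 by -0.91 ± 0.13 SE, adjusted p = 0.0002. Of 32 p53 targets 9 were lower at 5 nM (5 without 5 nM replicate 3 or replicate 1, 4 without 10 nM replicate 2), GDF15 (-0.37 ± 0.07 SE, adjusted p = 0.0024) and CDKN1A (-0.18 ± 0.05 SE, adjusted p = 0.041) among them, and 1 was higher, SPATA18 (0.31 ± 0.09 SE, adjusted p = 0.043). The largest increases over 10 nM were on NHLRC3, whose values were 143, 121 and 215 at 5 nM and 75.3, 75.4 and 110.4 at 10 nM (0.75 ± 0.15 SE, adjusted p = 0.0047), SRSF1 on 1 of 8 probe sets (0.79 ± 0.20 SE, adjusted p = 0.022), and RTKN2 (0.69 ± 0.12 SE, adjusted p = 0.0017). None of these 3 passed against DMSO, and without replicate 3 their adjusted p-values against 10 nM were 0.051, 0.12 and 0.014.

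The cultures were checked against cell type markers. Of 18 listed epithelial markers 16 had a probe set with a single symbol and 15 were tested, with KRT14 below the level minimum. Their summed intensity was 32236 to 33355 in DMSO and 30077 to 32823 at 5 nM, and KRT5 and SFN were the 2 called. Of 15 leukocyte markers 4 were tested, and PTPRC, CD3E and CD3D were under the minimum. The summed intensity of the leukocyte list was 698 to 737 in DMSO and 684 to 752 at 5 nM. For 12 endothelial markers, 2 tested and PECAM1, CDH5 and VWF under the minimum, the sums were 483 to 503 and 475 to 516. For 12 fibroblast markers, of which only COL1A1 was tested, they were 721 to 828 and 808 to 856. Genes of differentiated airway cells were tested on 6 of 12, with FOXJ1 and SCGB1A1 under the minimum. No marker of another cell type was called against DMSO or against 10 nM.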

How the data were processed

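Total RNA from 29 BEAS-2B cultures was measured on 3′ expression arrays, 1 array per culture. Each deposited value is an intensity on a linear scale, 1 per probe set and array. The authors made the intensities with GCOS, per the submitters' processing notes. The normalization was not given in the sources used here. Detection calls were left aside. The array medians lay close together as deposited, so higher and lower are relative to that common level.

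From these values log2(intensity + 16) was computed, the 62 control probe sets were left out, and the 27307 with the highest mean over all arrays were kept. Of the 54613 probe sets that are no controls, 41091 had 1 gene symbol in the platform annotation, 1801 several and 11721 none. Only the first were named. Groups followed the labels. A linear model with 1 mean per group over 29 arrays (19 residual degrees of freedom) was fitted with limma 3.58.1 in R 4.3.3, with trended empirical Bayes variances and Benjamini-Hochberg adjustment over all tested probe sets, and was tested on simulated data. Genes were named by rule: the 10 largest called changes in each direction with all arrays and, among those called both ways, without 5 nM replicate 3, the 5 above and 5 below on which that replicate stood farthest apart, up to 4 called members per list (or the 2 of smallest p), the 3 largest changes against 10 nM in each direction, and CDKN1A, MDM2, GDF15, FOS, EGR1, CYP1A1, CYP1B1, NQO1 and HMOX1. The rules by size of change took only probe sets whose arrays did not overlap between the groups compared. Other genes are list members or were named after their values were seen. The members and gene lists were chosen with earlier results of these data known. Alternatives varied the offset, filter, scaling, variance model, covariates and arrays. Promoter sequences are those of RefSeq.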

Additional observations from a re-analysis of the deposited data

How the results depend on the processing

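The count of 302 probe sets against DMSO was 657 with the 3′ to 5′ ratio as a covariate. With only the 2 groups in the fit it was 33, with 0 higher. It was 59 at 1.5-fold, 90 without 5 nM replicate 3 and DMSO replicate 1, and 41 to 363 when 1 array was left out. Against 10 nM (1665) it was 1001 with no level filter, 4089 with the covariate, 414 with only the 2 groups, 212 at 1.5-fold, 634 without those 2 arrays, and 606 to 1629 when 1 array was left out. With the covariate 54.8% of the calls against DMSO and 50.7% of those against 10 nM were lower. Without it these shares were 69.5% and 64.6%. The cause of these differences was not tested. Against 1 nM the count was 0 in every setting run. Over the named genes and lists, 1858 of 2273 values stayed the same, 334 lost the call, 27 gained one, 25 untested list medians moved and 29 changed sign. For a gene, the same meant an unchanged direction and outcome, called or not called. For a list median it meant a shift smaller than the SD of that list's medians in the 5 nM arrays. The 1858 thus include values of genes that were never called.

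Values that changed sign were those of genes not called. Without 5 nM replicate 3 and DMSO replicate 1 the log2 change was -0.017 for CPNE3, -0.43 for CSNK1A1, -0.01 for CYP1B1, -0.15 for HMOX1, -0.17 for MALAT1, -0.066 for NHLRC3, -0.37 for SRGAP1, -0.08 for TMEM33, 0.04 for TRMT2B and 1.24 for ZNF595. With array weights it was -0.21 for CSNK1A1, -0.11 for HMOX1, -0.10 for SRGAP1 and 0.58 for ZNF595. HMOX1 was -0.00013 with an offset of 1 and -0.0022 with median centring. When 1 array was left out the ranges were -0.01 to 0.81 for CPNE3, -0.34 to 0.47 for CSNK1A1, -0.078 to 0.13 for CYP1B1, -0.11 to 0.077 for HMOX1, -0.10 to 0.78 for MALAT1, 0.08 to 0.46 for NHLRC3, -0.40 to 0.63 for SRGAP1, -0.14 to 0.84 for TMEM33, -0.65 to 0.079 for TRMT2B and -1.40 to 0.53 for ZNF595.

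With the replicate number as a replicate block, 296 probe sets were called against DMSO and 1842 against 10 nM. Deviations of same-numbered arrays at 5 nM and in DMSO correlated at -0.24, -0.30 and 0.03, so the numbers were not taken to pair the cultures.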
